A study of Homo sapiens with 47 samples.

Results

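The plasminogen activation system was followed through 5 of its genes, chosen by gene name from 62703 genes listed in the RNA tables: PLAT, PLAU, PLAUR, SERPINE2 and ANXA2. The genes were picked with the RNA and chromatin results of these samples known. Their RNA and promoter differences are therefore given as descriptions, without a p-value. The samples were PC3 cells, an established human prostate cancer line, transduced to overexpress DDC (the decarboxylase that forms serotonin and dopamine), SLC6A4 (the serotonin transporter) or, as reference, an empty vector. Of the 47 samples of the series, 9 were RNA libraries, 3 of each line, and 27 were chromatin immunoprecipitation (ChIP) libraries. The ChIP libraries held 3 per line of input, of histone H3 trimethylated at lysine 4 (H3K4me3) and of the same tail carrying serotonin on the neighbouring glutamine (H3K4me3Q5ser). CUT&Tag, in which a transposase tags chromatin at the bound antibody, gave usable values for 1 library each of SLC6A4 cells with a short hairpin against TGM2, SLC6A4 cells and control cells. TGM2 is the transglutaminase that can place serotonin on this glutamine. Whether a line is a clone or a pool, and whether replicates came from separate cultures, is not given in the sources used here, so p-values measure only the spread between these libraries.

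Plasminogen is a circulating proenzyme that 2 proteases cut to plasmin: PLAT (tissue-type plasminogen activator) and PLAU (urokinase). PLAUR anchors urokinase to the cell surface, ANXA2 gathers plasminogen and tissue-type activator there as a partner of S100A10, and SERPINE2 (protease nexin 1) is a secreted serpin that inhibits thrombin, urokinase and tissue-type activator. Urokinase and its receptor have long been studied in prostate cancer for their part in matrix breakdown and invasion.

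RNA libraries held 17284019 to 21745703 reads in genes. The overexpressed genes were high in the lines named for them. DDC had 23.9, 27.5 and 30.8 normalised reads (the reads of a gene over its library's size factor) in DDC cells, against 0 to 0.9 in empty-vector cells. SLC6A4 had 87.4 to 129.5 normalised reads in SLC6A4 cells, against 0 to 0.9 in empty-vector cells. TGM2 averaged 13968 normalised reads in DDC cells, 31962 in SLC6A4 cells and 19355 in empty-vector cells. KRT8, KRT18, EPCAM and VIM passed the expression filter, and KLK3 did not, being at 0 in all 9 libraries. Of 5 markers of other cell types (PECAM1, COL1A1, CD68, ACTA2 and PTPRC), PTPRC was at or near 0. The summed level of the 5 was 257 to 285 normalised reads in DDC cells and 183 to 217 in SLC6A4 cells. It was 414 to 433 in empty-vector cells. PECAM1 and COL1A1 were lower in both lines. PECAM1 averaged 78.8 in DDC cells, 43.7 in SLC6A4 cells and 223 in empty-vector cells. CD68 averaged 155, 118 and 133 in the same order, and its DDC and empty-vector libraries overlapped. ACTA2 libraries overlapped between all lines. The part of these markers in the results was not tested.

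In SLC6A4 cells the RNA of the system was tilted: the tissue-type activator PLAT was 4.35 times its empty-vector level, while urokinase PLAU was at 0.536, the receptor PLAUR at 0.805 and the inhibitor SERPINE2 at 0.419 of theirs. ANXA2, the surface anchor, was 1.22 times its empty-vector level. In DDC cells the activators, the receptor and the inhibitor lay between 0.895 and 1.14 times their empty-vector levels, and ANXA2 was 1.23 times its empty-vector level. These are the values the genes were chosen on. In bulk RNA, fewer expressing cells and less RNA per cell cannot be told apart.

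PLAT (ENSG00000104368, chromosome 8, minus strand, 42174718 to 42207709 in GRCh38) had 564, 513 and 648 normalised reads in DDC cells, 2039, 2214 and 2305 in SLC6A4 cells, and 536, 529 and 442 in empty-vector cells. All 3 SLC6A4 libraries lay far above the other 6, and DDC and empty-vector libraries overlapped. The difference was 0.19 (SE 0.09) on the log2 scale for DDC against empty vector, 2.12 (SE 0.09) for SLC6A4 against empty vector and -1.93 (SE 0.09) for DDC against SLC6A4. Among 13544 genes that passed a filter of 10 normalised reads in 3 libraries, only 8 had a larger log2 difference between SLC6A4 and empty-vector cells.

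PLAU (ENSG00000122861, chromosome 10, plus strand, 73909177 to 73917496) had 12182, 14970 and 15937 normalised reads in DDC cells, 8937, 8234 and 8196 in SLC6A4 cells, and 17875, 17547 and 12460 in empty-vector cells. The SLC6A4 libraries were the lowest 3, and empty-vector library 3 fell among the DDC libraries. On the log2 scale this gave -0.14 (SE 0.11) for DDC against empty vector, -0.90 (SE 0.11) for SLC6A4 against empty vector and 0.76 (SE 0.11) for DDC against SLC6A4. The long noncoding gene C10orf55 lies on the opposite strand across PLAU, and its level followed the same order: it averaged 2930 normalised reads in DDC cells, 1652 in SLC6A4 cells and 3136 in empty-vector cells. No strand setting is given for the RNA counting, so reads of PLAU and of its antisense partner cannot be told apart.

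PLAUR (ENSG00000011422, chromosome 19, minus strand, 43646095 to 43670547) had 11677, 12248 and 15468 normalised reads in DDC cells, 9609, 9577 and 9183 in SLC6A4 cells, and 11110, 12601 and 11555 in empty-vector cells. Again the SLC6A4 libraries were the lowest 3, by a smaller margin than for PLAU. Log2 differences were 0.15 (SE 0.08) for DDC against empty vector, -0.31 (SE 0.08) for SLC6A4 against empty vector and 0.46 (SE 0.08) for DDC against SLC6A4.

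SERPINE2 (ENSG00000135919, chromosome 2, minus strand, 223975045 to 224039318) had 164, 197 and 167 normalised reads in DDC cells, 85.6, 82.6 and 76.7 in SLC6A4 cells, and 224, 208 and 162 in empty-vector cells. The SLC6A4 libraries were the lowest 3, and the DDC and empty-vector libraries overlapped. The log2 difference was -0.16 (SE 0.13) for DDC against empty vector, -1.26 (SE 0.13) for SLC6A4 against empty vector and 1.10 (SE 0.13) for DDC against SLC6A4.

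ANXA2 (ENSG00000182718, chromosome 15, minus strand, 60347134 to 60402883) had 260737, 260372 and 261917 normalised reads in DDC cells, 249660, 265308 and 266891 in SLC6A4 cells, and 223112, 214812 and 201111 in empty-vector cells. Both overexpressing lines lay above every empty-vector library and overlapped each other. On the log2 scale this gave 0.29 (SE 0.09) for DDC against empty vector, 0.29 (SE 0.09) for SLC6A4 against empty vector and 0.00 (SE 0.09) for DDC against SLC6A4. ANXA2P2 is a processed pseudogene of ANXA2 that can share its reads. It averaged 1043 normalised reads in DDC cells, 904 in SLC6A4 cells and 819 in empty-vector cells, so its 3 DDC libraries, like those of ANXA2, lay above those of empty vector.

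**Figure D1:**
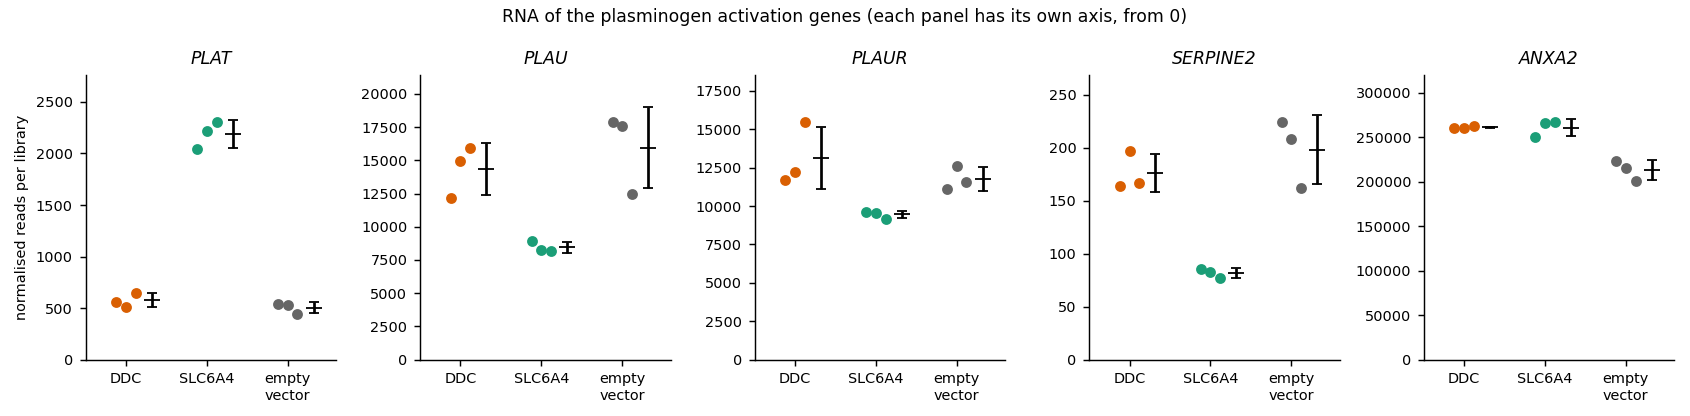
Normalised reads of the 5 genes in each of the 9 RNA libraries, with the mean and SD of the 3 libraries of a line beside them. PLAT is high in SLC6A4 cells (2039 to 2305) while PLAU, PLAUR and SERPINE2 have their 3 lowest libraries there, and ANXA2 is lowest in empty-vector cells.

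On a per-length scale (TPM, from the union of exons) the order of levels was the same in every line. ANXA2 came first, at 1705 ± 69 in DDC cells, 1823 ± 71 in SLC6A4 cells and 1512 ± 29 in empty-vector cells (SD, n = 3 each). PLAU followed at 367 ± 36 in DDC cells, 232 ± 11 in SLC6A4 cells and 444 ± 73 in empty-vector cells. PLAUR had 222 ± 25 in DDC cells, 172 ± 5.8 in SLC6A4 cells and 217 ± 18 in empty-vector cells. Urokinase and its receptor lay far above the tissue-type activator and the serpin on this scale. PLAT reached 5.58 ± 0.52 in DDC cells, 22.8 ± 1.4 in SLC6A4 cells and 5.31 ± 0.41 in empty-vector cells. SERPINE2 had 1.49 ± 0.16 in DDC cells, 0.738 ± 0.045 in SLC6A4 cells and 1.81 ± 0.24 in empty-vector cells. Neighbours in this order were further apart than their SDs in each line, and even in SLC6A4 cells PLAT stayed well below PLAU. The SDs do not cover the choice of exon length, 2949 bases for PLAU and 4457 for PLAUR. In normalised reads PLAUR averaged more than PLAU in SLC6A4 cells, 9456 against 8456.

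The lines were separated in all 5 genes between SLC6A4 and empty vector, in 1 of 5 between DDC and empty vector (ANXA2), and in 4 of 5 between DDC and SLC6A4, counting a gene where no library of one line overlapped the other. Over all genes tested the same holds for 34.6% between SLC6A4 and empty vector, 32.8% between DDC and empty vector and 28.7% between DDC and SLC6A4. Nothing is read from these shares, since the members were chosen on these comparisons, and both comparisons with empty vector share its 3 libraries.

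The DDC values against empty vector were small beside the processing and beside single libraries. Scaling by library size alone moved the median of all genes in this comparison to -0.12 on the log2 scale and shifted all 5 members with it, to 0.07 for PLAT, -0.26 for PLAU, 0.03 for PLAUR, -0.28 for SERPINE2 and 0.17 for ANXA2. With 1 library left out at a time, the log2 difference of PLAT ranged from 0.10 (without DDC library 3 or empty-vector library 3) to 0.27. That of PLAU ranged from -0.31 without empty-vector library 3 to -0.03 without DDC library 1, and was -0.22 without DDC library 3, -0.05 without empty-vector library 1 and -0.06 without empty-vector library 2. PLAUR had 0.03 without DDC library 3 and 0.23 without DDC library 1. SERPINE2 had -0.30 without empty-vector library 3, -0.24 without DDC library 2 and -0.06 without empty-vector library 1. ANXA2 stayed between 0.25 and 0.33.

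The genes most like each member over the 9 RNA libraries were found from log2 profiles centred on their own mean, by the root-mean-square difference. For PLAT the first of these were UAP1 (difference 0.36 log2 units) and KRTAP2-3 (0.37). For PLAU the nearest was its antisense neighbour C10orf55 (0.04), then CDK2AP2 (0.11) and RTN3 (0.12). PLAUR was nearest to CCDC167, PCP2 and MAPKAP1 (0.07 each). SERPINE2 was nearest to SLCO4A1-AS1 (0.10), DUSP6 (0.11), a phosphatase that switches off ERK, and SLCO4A1 (0.12). ANXA2 was nearest to TOMM6, EIF3I and PRPF6 (0.04 each), whose profiles have the same small step between the lines and empty vector.

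The other genes of the pathway were taken from lists made for this work. They held 53 reported genes, of which 29 passed the expression filter and 24 did not. The lists were made with earlier results of these data known. Their counts and adjusted p-values are therefore descriptions, and nothing is read from the counts beside the shares of all genes. Plasminogen itself (PLG) and LPA had no read in any library, nor did the urokinase activators HPN, KLK4 and KLKB1, the formyl peptide receptor FPR2, the gelatinase MMP2 or the inhibitor A2M. With limma over all 13544 genes, 12 of the 29 were called in DDC against empty vector (0 higher, 12 lower), where 18.5% of all genes were called (9.54% higher, 8.96% lower). In SLC6A4 against empty vector 14 were called (3 higher, 11 lower), against 16.3% of all genes (8.41% higher, 7.94% lower). In DDC against SLC6A4, 8 were called (2 higher, 6 lower), against 13.2% of all genes (6.47% higher, 6.74% lower). The median log2 difference of the 29 was -0.32 in DDC against empty vector, -0.27 in SLC6A4 against empty vector and 0.02 in DDC against SLC6A4, and that of all genes was 0.00 in each of the 3.

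Among the 7 inhibitors reported 2 were measured. SERPINB2, a serpin that inhibits urokinase, fell to 10.4, 8.8 and 8.0 normalised reads in DDC cells, against 29.8, 23.96 and 34.6 in empty-vector cells (log2 difference -1.59, SE 0.27, adjusted p = 1.85e-04). Its SLC6A4 value was -0.32 (adjusted p = 0.473). SERPINI1 (neuroserpin), an inhibitor of tissue-type activator, had 5.4 to 20.7 normalised reads and was not called, at -0.53 in DDC cells and -0.72 in SLC6A4 cells against empty vector.

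Of the 5 genes for plasminogen and its surface binders 3 were measured. S100A10, which forms a surface tetramer with ANXA2, fell in both lines while ANXA2 was higher. It had 7793, 8013 and 8823 normalised reads in DDC cells, 7921, 8613 and 8911 in SLC6A4 cells, and 10668, 10415 and 9556 in empty-vector cells. Log2 differences were -0.32 (SE 0.07, adjusted p = 0.00291) in DDC cells and -0.27 (SE 0.07, adjusted p = 0.0107) in SLC6A4 cells. The SLC6A4 call was lost without SLC6A4 library 1 (adjusted p = 0.0687), without empty-vector library 1 (0.0625) or without empty-vector library 2 (0.0572), and its adjusted p ranged from 5.51e-04 to 0.0687 over the alternatives. ENO1, a glycolytic enzyme that binds plasminogen on the surface, and the plasminogen receptor PLGRKT were not called in any comparison, with log2 differences between -0.29 and 0.18. In DDC against SLC6A4, 0 of the 3 were called by limma or by DESeq2, and 1 had an unadjusted p below 0.05.

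Of 7 proteases that can activate urokinase 4 were measured. ST14 (matriptase), a membrane serine protease, fell to 8.3, 13.2 and 11.9 normalised reads in DDC cells, against 123.4, 131 and 144 in empty-vector cells (log2 difference -3.48, SE 0.19, adjusted p = 1.46e-11). In SLC6A4 cells it fell to 76.3, 72.6 and 55.8 normalised reads (-0.96, SE 0.19, adjusted p = 0.00128). The other 3 were not called, with log2 differences between -0.14 and 0.21 over the 3 comparisons.

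Of 14 receptor partners and clearance genes 9 were measured, with 2 called in DDC cells and 5 in SLC6A4 cells against empty vector. LRP1, the endocytic receptor that clears activator and inhibitor complexes, fell to 65.1, 106 and 95.7 normalised reads in SLC6A4 cells, against 168, 156 and 133 in empty-vector cells (log2 difference -0.79, SE 0.17, adjusted p = 0.00178). Its DDC libraries held 154, 204 and 139, and the DDC against SLC6A4 difference was 0.90 (adjusted p = 6.60e-04). The integrin subunit ITGA5 of the fibronectin receptor fell in both lines, by 0.48 (adjusted p = 0.00341) in DDC cells and by 0.51 (adjusted p = 0.00196) in SLC6A4 cells, and its partner ITGB1 fell by 0.33 (adjusted p = 0.00289) in SLC6A4 cells. Caveolin CAV1, a membrane coat protein that associates with the urokinase receptor, moved in opposite directions: its log2 difference was -0.47 in DDC cells (adjusted p = 1.58e-05) and 0.30 in SLC6A4 cells (adjusted p = 0.00205), and the direct difference between DDC and SLC6A4 was -0.77 (adjusted p = 1.86e-08). EGFR, the growth factor receptor linked to PLAUR signalling, had a log2 difference between DDC and SLC6A4 of -0.83 (adjusted p = 3.19e-05). Against empty vector EGFR was higher in SLC6A4 cells (0.51, adjusted p = 0.00399) and not called in DDC cells (-0.33, adjusted p = 0.0581).

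Of 14 substrates of plasmin and of the activators 6 were measured, and 4 were called in each line against empty vector. Fibronectin FN1, a matrix substrate, fell to 488, 475 and 420 normalised reads in DDC cells and to 200.9, 175 and 183 in SLC6A4 cells, against 680, 636 and 697 in empty-vector cells. The log2 difference was -0.54 (SE 0.09, adjusted p = 1.84e-04) in DDC cells and -1.84 (SE 0.09, adjusted p = 1.29e-12) in SLC6A4 cells. THBS1 (thrombospondin 1) had 269, 242 and 262 normalised reads in DDC cells, 1515, 1549 and 1575 in SLC6A4 cells, and 847, 819 and 791 in empty-vector cells. It thus fell in DDC cells (log2 difference -1.67, adjusted p = 3.46e-13) and rose in SLC6A4 cells (0.92, adjusted p = 8.56e-09). LTBP1, which tethers latent TGF-beta to the matrix, fell by 0.48 (adjusted p = 5.66e-04) in DDC cells and by 0.49 (adjusted p = 4.95e-04) in SLC6A4 cells. PDGFC, a growth factor released from its latent form by tissue-type activator, fell in DDC cells (log2 difference -0.99, adjusted p = 9.10e-04) and in SLC6A4 cells (-0.65, adjusted p = 0.0241). The SLC6A4 call of PDGFC was lost without SLC6A4 library 1 (adjusted p = 0.0627) or 2 (0.0981), without empty-vector library 2 (0.0848) or 3 (0.0880) and with DESeq2 (0.128). Its adjusted p was 0.0139 to 0.128 over the alternatives.

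At the coagulation surface 5 of 6 genes were measured, and 3 fell in each line. TFPI, the inhibitor of tissue factor, fell to 354, 310 and 360 normalised reads in DDC cells and to 553, 628 and 649 in SLC6A4 cells, against 1306, 1353 and 1445 in empty-vector cells. Its log2 difference was -2.00 (adjusted p = 1.50e-13) in DDC cells and -1.17 (adjusted p = 1.35e-09) in SLC6A4 cells. The protease-activated receptor F2RL1 fell by 0.73 (adjusted p = 0.00249) in DDC cells and by 0.94 (adjusted p = 2.24e-04) in SLC6A4 cells. The thrombin receptor F2R, at 12.1 to 44.6 normalised reads, fell by 1.12 (adjusted p = 0.00801) in DDC cells and by 1.07 (adjusted p = 0.0118) in SLC6A4 cells. The DDC call of F2R was lost without DDC library 2 (adjusted p = 0.0559, range 0.00350 to 0.0559 over the alternatives). Its SLC6A4 call was lost without SLC6A4 library 3 (0.0671) and with DESeq2 (0.0544), over a range of 0.00313 to 0.0671.

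**Figure D2:**
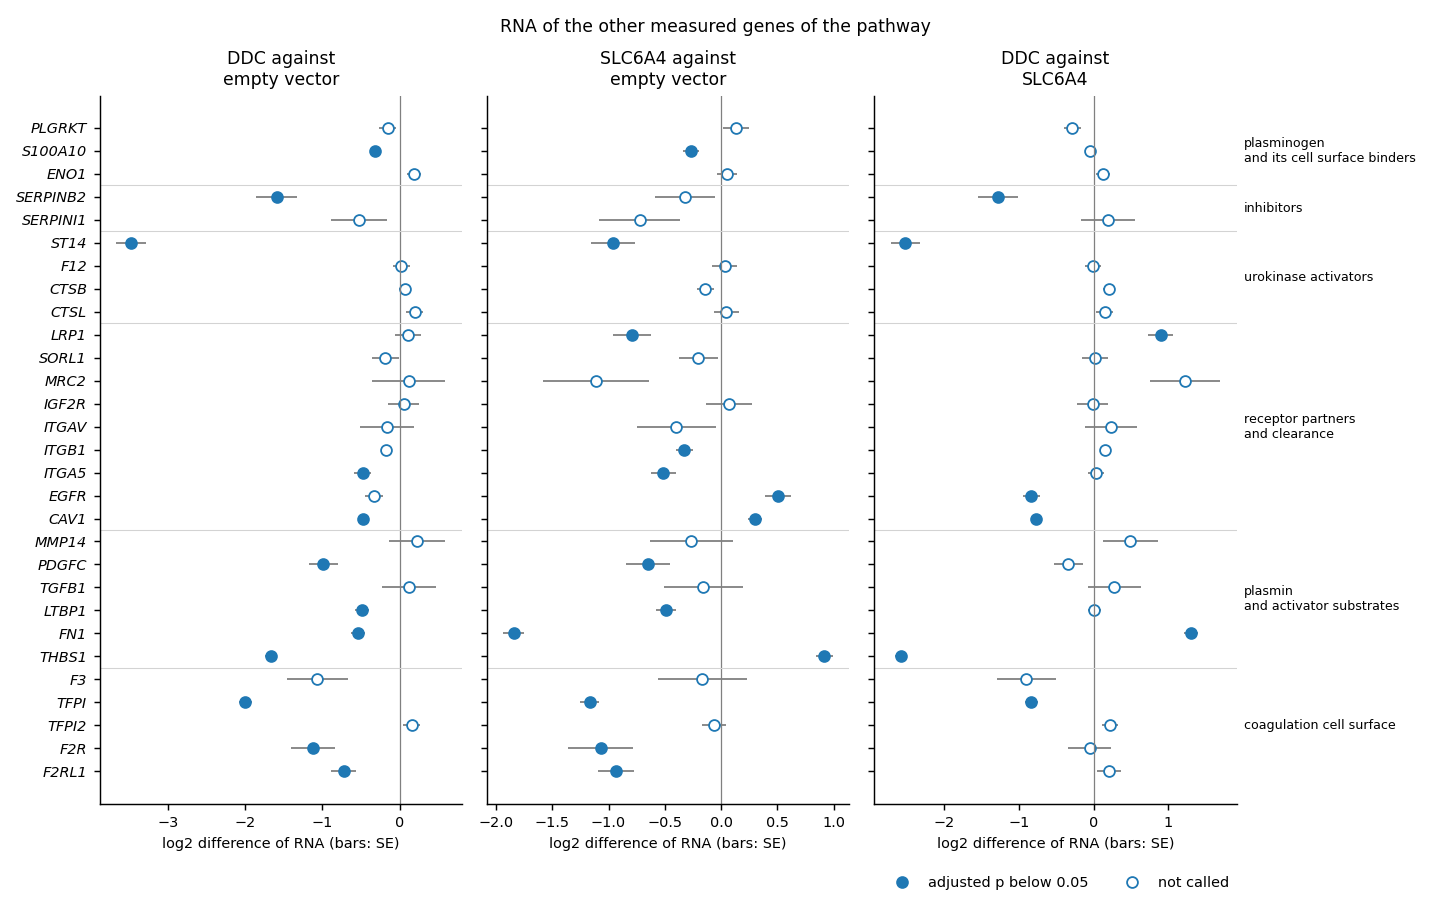
Log2 difference of RNA (x axis, bars are SE from limma) of 29 other measured pathway genes in the 3 comparisons, grouped by role; filled points passed an adjusted p of 0.05. ST14 stands out to the left in DDC cells (-3.48), and THBS1 and CAV1 lie on opposite sides of 0 in DDC and SLC6A4 cells.

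The promoters were read next. H3K4me3 marks active promoters, and H3K4me3Q5ser is its serotonylated form. The ChIP table counts read pairs over 19535 regions of a median 4023 bp, which are the authors' H3K4me3Q5ser peaks. Plain H3K4me3 and input were thus counted over regions set by the serotonylated mark, and shares of all regions refer to these. Each member had 1 region within 1000 bp of an annotated start. The region of PLAT spans 3651 bp (chr8:42204069-42207719), that of PLAU 11482 bp (chr10:73909157-73920638) and that of PLAUR 4852 bp (chr19:43667744-43672595). The region of SERPINE2 spans 8402 bp (chr2:224034460-224042861) and that of ANXA2 9858 bp (chr15:60389067-60398924). All 5 cover the canonical start site and reach into the gene. The authors' combined list of H3K4me3 peaks, which is narrower, held 1 peak for PLAT, 1 for PLAU, 2 for PLAUR, 1 for SERPINE2 and 5 for ANXA2 within these regions. The PLAU region extends from 1975 bp before the start to 9506 bp past it, so it covers the whole gene. In empty-vector cells its density (CPM per kb) was 5.06 times that of the median region in H3K4me3Q5ser and 4.74 times in H3K4me3, but also 4.57 times in input, above 99.2% of regions. PLAT was at 0.573 times the median in H3K4me3Q5ser and 0.870 times in H3K4me3, beside 0.716 times in input. H3K4me3Q5ser lay at 1.69 times for PLAUR, 1.57 for ANXA2 and 0.997 for SERPINE2, beside input at 0.775, 0.877 and 0.943 times. The part of the input density in these values was not tested.

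**Figure D3:**
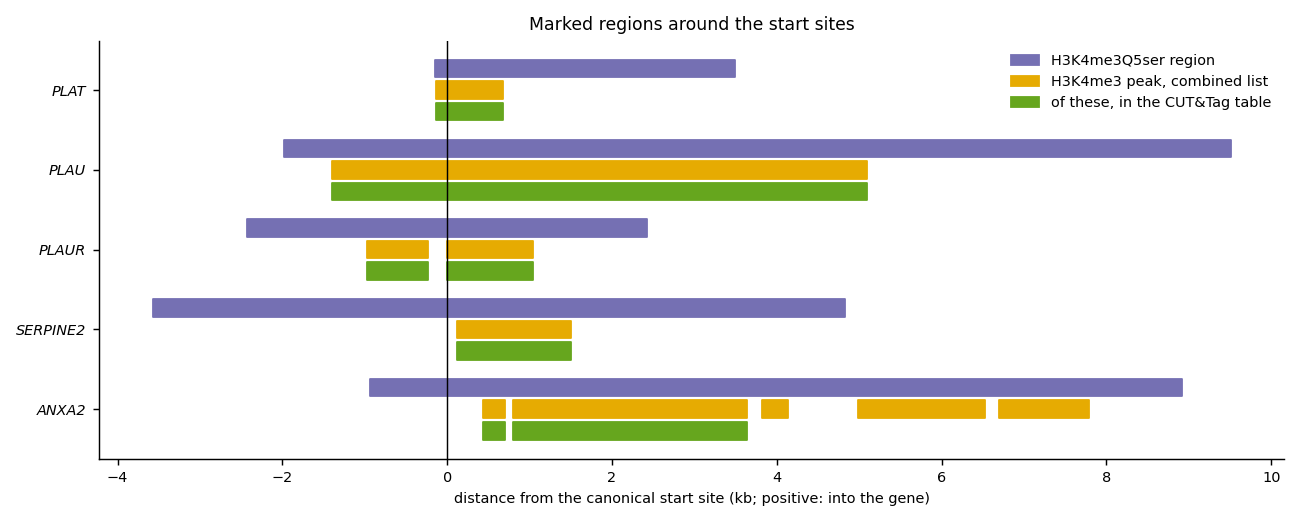
Extent of the H3K4me3Q5ser region, of the H3K4me3 peaks of the combined list and of those peaks that are in the CUT&Tag table, by distance from the canonical start site in kb. The serotonylated regions are broader than the H3K4me3 peaks in all 5 genes, and the PLAU region reaches 9.5 kb into the gene. The lists as a whole differ in the same way, with a median of 4023 bp for H3K4me3Q5ser and 780 bp for H3K4me3.

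The 250 bases before a start inside the marked region are given below for the members found in the RefSeq promoter table (GRCh38.p14), to show the sequence the mark values refer to. Of the 5 members 4 were matched; PLAT is named only. Capitals mark the Sp1 box GGGCGG, the TATA box TATAAA and the AP-1 motif TGANTCA, read on both strands. The TEAD motif GGAATG was searched as well, with no match in these windows.
PLAU, plus strand, chr10:73910882-73911131: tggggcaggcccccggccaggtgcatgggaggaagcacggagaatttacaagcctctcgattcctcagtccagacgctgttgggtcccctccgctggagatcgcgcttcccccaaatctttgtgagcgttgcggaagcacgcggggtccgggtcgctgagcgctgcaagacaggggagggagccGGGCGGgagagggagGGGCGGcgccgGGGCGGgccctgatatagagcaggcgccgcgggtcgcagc
PLAUR, minus strand, chr19:43670170-43670419: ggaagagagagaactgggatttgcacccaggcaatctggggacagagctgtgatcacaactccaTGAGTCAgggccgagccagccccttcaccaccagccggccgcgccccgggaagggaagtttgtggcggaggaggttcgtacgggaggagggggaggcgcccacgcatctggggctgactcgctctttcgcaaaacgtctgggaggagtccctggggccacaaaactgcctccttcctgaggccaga
SERPINE2, minus strand, chr2:224038641-224038890: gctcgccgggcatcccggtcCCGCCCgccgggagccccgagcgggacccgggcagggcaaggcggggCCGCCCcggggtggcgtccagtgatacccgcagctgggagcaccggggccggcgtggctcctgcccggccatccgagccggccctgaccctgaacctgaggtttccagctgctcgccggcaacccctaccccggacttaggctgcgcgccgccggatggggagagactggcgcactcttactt
ANXA2, minus strand, chr15:60397987-60398236: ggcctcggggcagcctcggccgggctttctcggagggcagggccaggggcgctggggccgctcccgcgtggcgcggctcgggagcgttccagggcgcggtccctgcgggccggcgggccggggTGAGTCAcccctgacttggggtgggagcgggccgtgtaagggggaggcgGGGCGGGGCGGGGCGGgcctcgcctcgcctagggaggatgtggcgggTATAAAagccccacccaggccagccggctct
The PLAU promoter shown held 3 Sp1 boxes, at 66, 51 and 40 bases before the start. A second PLAU start in the marked region, 522 bp from the canonical one and not shown, held none of the 4 motifs. ANXA2 held 3 Sp1 boxes that overlap by single bases, a TATA box and an AP-1 match; PLAUR held an AP-1 match and no Sp1 box; SERPINE2 held 2 Sp1 boxes at a start 646 bp inside the canonical one. Over 35116 promoters of 300 bases, 45.0% held GGGCGG, 11.5% TATAAA, 7.71% TGANTCA and 14.03% GGAATG, on either strand. A match describes letters in this window and shows no binding.

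H3K4me3Q5ser was higher at 4 of 5 promoters in SLC6A4 cells than in empty-vector cells, by most at PLAT and SERPINE2, although the RNA of PLAT was higher there and that of SERPINE2 lower. In DDC cells it was higher at PLAT and SERPINE2 and lower at PLAUR, with input differing the same way at SERPINE2 and PLAUR (given below). All these differences were small, at most 1.41-fold. With edgeR over all regions, 3 of 5 promoters passed an adjusted p of 0.05 in DDC against empty vector, where 61.2% of all regions were called (29.7% higher, 31.5% lower). In SLC6A4 against empty vector 4 of 5 were called, all higher, against 82.5% of all regions (41.0% higher, 41.5% lower). In DDC against SLC6A4 5 of 5 were called, all lower, against 76.9% (38.0% higher, 38.9% lower). The members were chosen with the chromatin results known, so nothing is read from these counts. The H3K4me3Q5ser libraries held 13511040 to 24765380 read pairs in regions.

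PLAT had 17.3, 16.5 and 18.3 H3K4me3Q5ser CPM (read pairs relative to the TMM-scaled library total) in DDC cells, 19.3, 20.2 and 18.9 in SLC6A4 cells, and 13.6, 14.96 and 12.9 in empty-vector cells. The 3 lines did not overlap. On the log2 scale this gave 0.32 (SE 0.07) for DDC against empty vector, 0.49 (SE 0.06) for SLC6A4 against empty vector and -0.17 (SE 0.06) for DDC against SLC6A4. Of 19535 regions 90.6% had a smaller log2 difference than PLAT in DDC cells, and 82.4% in SLC6A4 cells. A DDC promoter value 1.25 times that of empty vector thus came with RNA at 1.14 times it, and an SLC6A4 value of 1.41 times with RNA at 4.35 times.

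SERPINE2 had 57.8, 62.0 and 56.8 H3K4me3Q5ser CPM in DDC cells, 68.4, 67.5 and 69.7 in SLC6A4 cells, and 54.5, 55.9 and 55.6 in empty-vector cells. SLC6A4 libraries were the highest 3, the reverse of the RNA order. Log2 differences were 0.09 (SE 0.04) for DDC against empty vector, 0.31 (SE 0.03) for SLC6A4 against empty vector and -0.22 (SE 0.03) for DDC against SLC6A4. Without DDC library 2 the DDC against empty vector value was 0.05.

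PLAU had 373, 377 and 381 H3K4me3Q5ser CPM in DDC cells, 418, 428 and 420 in SLC6A4 cells, and 383, 377 and 391 in empty-vector cells. Here too the SLC6A4 libraries were the highest 3 while PLAU RNA was lowest in them. The log2 difference was -0.03 (SE 0.01) for DDC against empty vector, 0.14 (SE 0.01) for SLC6A4 against empty vector and -0.16 (SE 0.01) for DDC against SLC6A4. With library-size scaling the SLC6A4 against empty vector value was 0.08. The input density of the PLAU region was much the same in both lines with input values, at 4.51 times the median region in DDC cells and 4.57 times in empty-vector cells, and that of its neighbours within 2 Mb was 3.64 times the median. In DDC cells the input density was 0.632 times the median for PLAT, 0.652 for PLAUR, 1.03 for SERPINE2 and 0.802 for ANXA2. In empty-vector cells these were 0.716, 0.775, 0.943 and 0.877. Input at SERPINE2, PLAUR and ANXA2 thus differed in the direction of H3K4me3Q5ser, and input at PLAT in the opposite one. The part of input in these differences was not tested. No input columns of SLC6A4 cells were used here.

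ANXA2 had 98.6, 103 and 100.4 H3K4me3Q5ser CPM in DDC cells, 112, 114 and 106 in SLC6A4 cells, and 101, 103 and 103 in empty-vector cells. The SLC6A4 libraries lay above the rest. On the log2 scale this gave -0.03 (SE 0.03) for DDC against empty vector, 0.11 (SE 0.03) for SLC6A4 against empty vector and -0.14 (SE 0.03) for DDC against SLC6A4. With library-size scaling the SLC6A4 against empty vector value was 0.06 and the DDC against SLC6A4 value -0.09.

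PLAUR had 49.3, 49.7 and 46.4 H3K4me3Q5ser CPM in DDC cells, 55.5, 53.9 and 51.5 in SLC6A4 cells, and 53.8, 54.3 and 54.5 in empty-vector cells. The DDC libraries were the lowest 3, and the SLC6A4 libraries spread around those of empty vector. Log2 differences were -0.16 (SE 0.04) for DDC against empty vector, -0.02 (SE 0.03) for SLC6A4 against empty vector and -0.14 (SE 0.04) for DDC against SLC6A4. With library-size scaling the SLC6A4 against empty vector value was -0.07 and the DDC against SLC6A4 value -0.09. Without SLC6A4 library 3 the SLC6A4 value was 0.01, on the other side of 0.

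The plain H3K4me3 libraries were shallower, at 3429714 to 5811116 read pairs in regions per library. In this mark 0 of 5 promoters were called in DDC against empty vector by edgeR or by DESeq2, 1 had an unadjusted p below 0.05, and 17.6% of all regions were called. In SLC6A4 against empty vector 2 of 5 were called, PLAU and ANXA2, against 61.5% of all regions. In DDC against SLC6A4 PLAU and ANXA2 were again the 2 called, against 60.2%. These counts, too, come from comparisons known when the members were chosen. PLAU had 436, 438 and 420 H3K4me3 CPM in DDC cells, 469, 480 and 476 in SLC6A4 cells, and 446, 427 and 428 in empty-vector cells. Its log2 difference was 0.13 (SE 0.03) for SLC6A4 against empty vector and -0.14 (SE 0.03) for DDC against SLC6A4, the same size as in the serotonylated mark. ANXA2 went the other way, with 92.8, 98.4 and 114 CPM in DDC cells, 91.5, 94.9 and 95.5 in SLC6A4 cells, and 116, 106 and 110 in empty-vector cells. Its log2 difference was -0.23 (SE 0.06) for SLC6A4 against empty vector and 0.12 (SE 0.06) for DDC against SLC6A4. Without DDC library 3 the last value was 0.03.

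PLAT had 25.4, 30.02 and 32.2 H3K4me3 CPM in DDC cells, 31.6, 27.98 and 28.2 in SLC6A4 cells, and 26.5, 21.8 and 27.8 in empty-vector cells. SLC6A4 libraries lay just above those of empty vector, at a depth of 90 to 167 read pairs per library. The log2 difference was 0.22 (SE 0.11) for DDC against empty vector and 0.21 (SE 0.11) for SLC6A4 against empty vector. Without empty-vector library 2 these values were 0.11 and 0.10, and without DDC library 3 the DDC value was 0.14. The remaining H3K4me3 differences of the 5 promoters lay between -0.17 and 0.09.

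**Figure D4:**
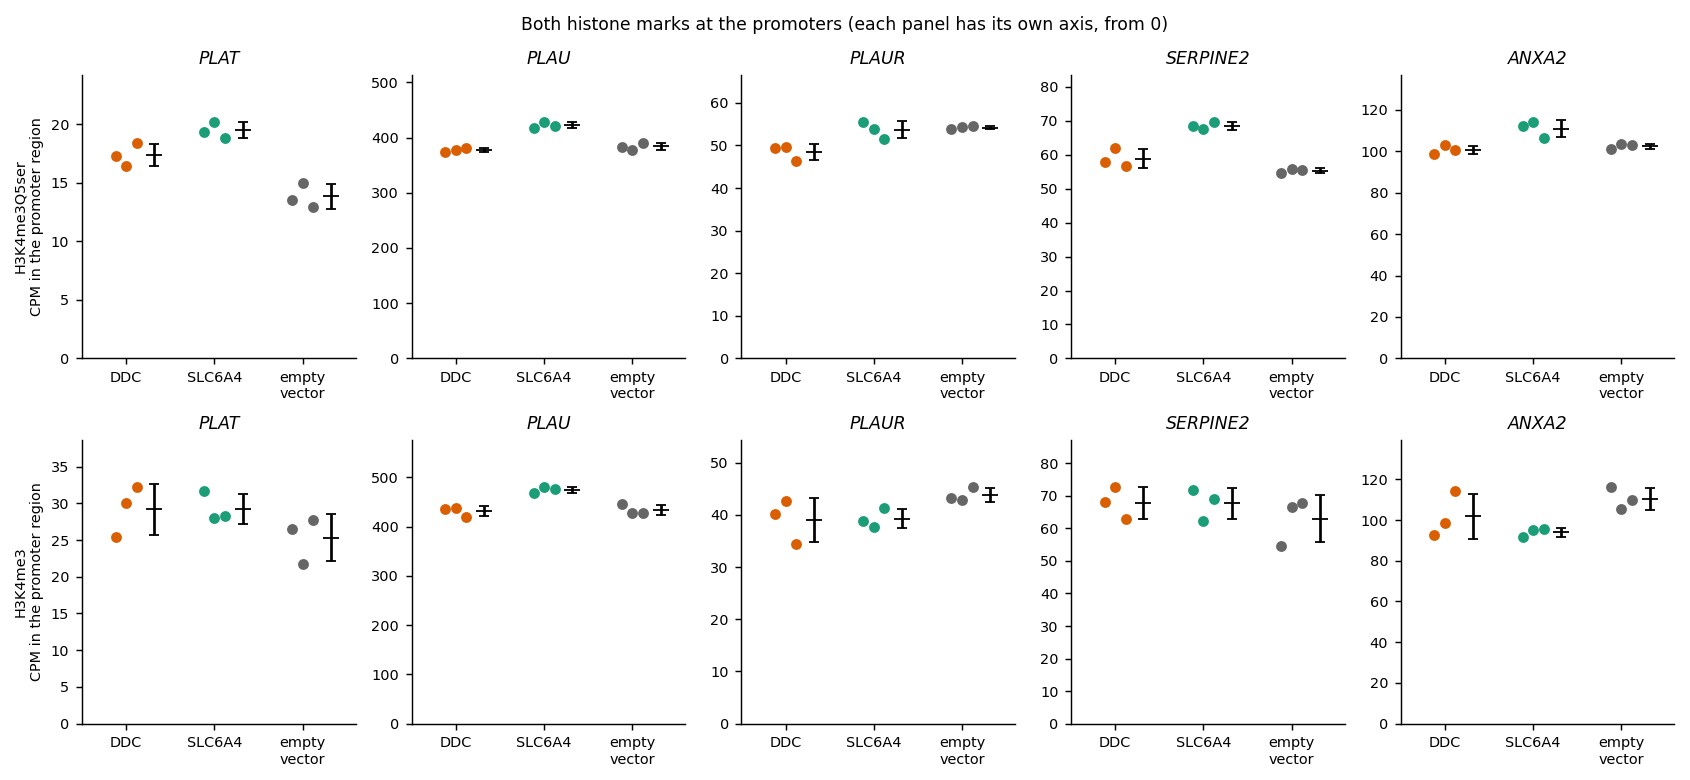
H3K4me3Q5ser (upper row) and H3K4me3 (lower row) in CPM over the promoter region of each gene in each of 9 libraries per mark, with the mean and SD of the 3 libraries of a line. H3K4me3Q5ser at PLAT, PLAU and SERPINE2 is highest in the 3 SLC6A4 libraries, and H3K4me3 at ANXA2 is lower in them than in the 3 empty-vector libraries.

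How far the difference in H3K4me3Q5ser departed from that in H3K4me3 was measured as an interaction of mark and line over 18 libraries with edgeR. In DDC against empty vector 0 of 5 promoters were called by edgeR or DESeq2, 0 had an unadjusted p below 0.05, and 15% of all regions were called. In SLC6A4 against empty vector 2 of 5 were called, against 29.2% of all regions. At ANXA2 the interaction was 0.34 (SE 0.06) on the log2 scale, the SLC6A4 against empty vector difference being positive in H3K4me3Q5ser and negative in H3K4me3. At SERPINE2 it was 0.22 (SE 0.08), and 0.13 with library-size scaling. PLAT had a larger value than SERPINE2, 0.28 (SE 0.12), but was not called. Also not called were PLAUR, at 0.14 (SE 0.09), and PLAU, at 0.005 (SE 0.03). These values also describe promoters chosen with the chromatin results known.

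The regions around each promoter give a local scale; the 2 Mb window was chosen after the values were seen. Near PLAT, 20 of 21 regions had a smaller H3K4me3Q5ser log2 difference than PLAT in SLC6A4 against empty vector, and their median was 0.05. Near SERPINE2, 9 of 11 regions lay below SERPINE2, with a median of 0.01. The 42 regions near PLAU had a median of -0.26 in the same comparison, against 0.14 at PLAU itself, and 33 lay below it. The 24 regions near ANXA2 had a median of -0.25, against 0.11 at ANXA2, and 18 lay below it. All of these promoters thus stood above most of their surroundings. PLAUR was within the middle of its 91 neighbours, at -0.02 against a median of 0.05. In H3K4me3, ANXA2 was at -0.23 in this comparison, the same as the median of the 23 regions near it.

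**Figure D5:**
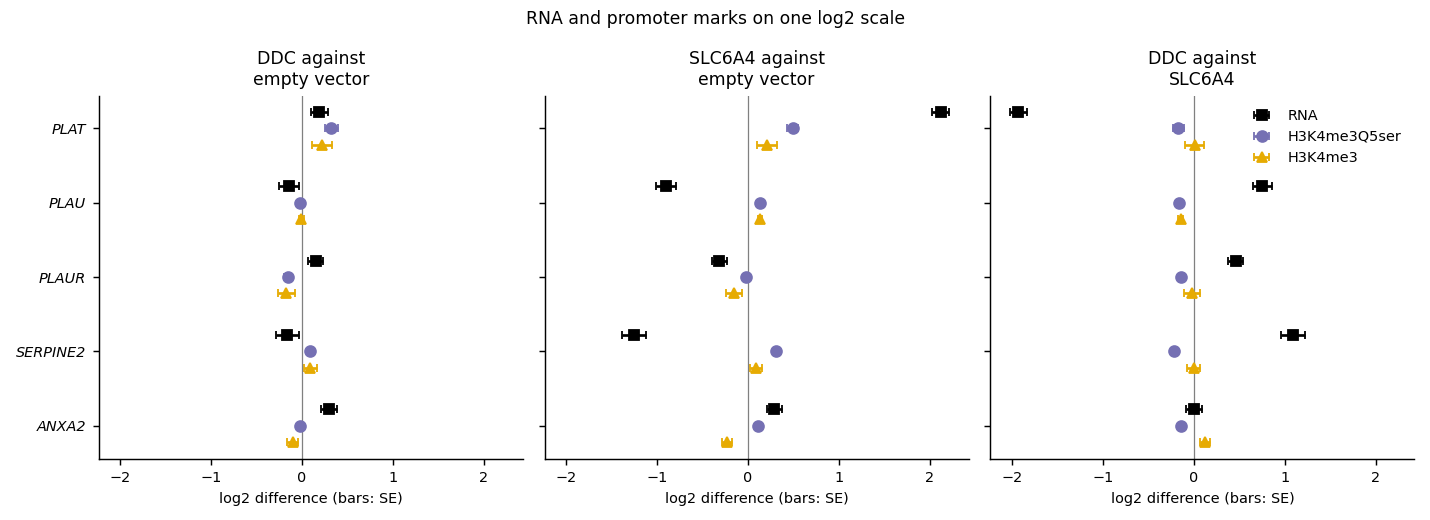
Log2 difference (x axis, bars are SE) of RNA and of both promoter marks for each gene in 3 comparisons on 1 scale. In SLC6A4 against empty vector RNA spans -1.26 to 2.12 while the marks stay between -0.23 and 0.49, and PLAU and SERPINE2 have lower RNA beside higher H3K4me3Q5ser.

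CUT&Tag of H3K4me3 had 1 library per group, so its CPM values carry no test. Values exist only for 13882 peaks that the authors labelled as not dependent on the serotonylated mark, the size of their list of peaks not called up. The 7 peaks with values at the members were in that list, which is therefore no result. The 5 member regions held no peak of the list called up. The PLAT peak had 10.5 CPM in SLC6A4 cells with the TGM2 hairpin, 10.9 in SLC6A4 cells and 10.2 in control cells. The PLAU peak had 181 CPM with the TGM2 hairpin, 196 in SLC6A4 cells and 193 in control cells. The SERPINE2 peak had 26.2 CPM with the TGM2 hairpin, 30.5 in SLC6A4 cells and 27.5 in control cells. The ANXA2 peaks had 28.9 and 11.3 CPM in SLC6A4 cells, against 23.7 and 9.38 in control cells. The PLAUR peaks had 21.2 and 4.12 CPM, against 18.7 and 4.11. ANXA2 and the larger PLAUR value were thus higher in SLC6A4 cells, while H3K4me3 ChIP was lower there (log2 difference -0.23 and -0.15). PLAT, PLAU and SERPINE2 had higher SLC6A4 values in both assays. The reason for the difference was not tested. Over the 7 peaks the ratio of SLC6A4 to control cells was 1.00 to 1.22. The 5th and 95th percentiles of the 13882 peaks were 0.80 and 1.23. The ratio of hairpin to SLC6A4 cells was 0.86 to 1.08, between the same percentiles (0.76 and 1.13). These percentiles cover only peaks labelled as not dependent, so they do not place the members among all CUT&Tag peaks.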

How the data were processed

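RNA, ChIP and CUT&Tag files of PC3 cells were used as deposited. For RNA, the authors deposited a signal per gene, reads divided by DESeq2 size factors; dividing by the smallest step gave back whole reads for 100% of values in all 9 libraries (tolerance 1e-06). The deposited RNA tables also hold p-values, Wald scores and log2 changes made by the authors, which give no result here. For ChIP, the authors deposited estimated counts per region from featureCounts 2.0.3, per the file headers, with fractional counting and a strand setting beside regions that carry no strand; 9.78% of values were not whole and were rounded. For CUT&Tag, the deposited values are CPM per peak, for peaks the authors labelled as not dependent on the serotonylated mark. Peak positions are those of the authors, from MACS2 per the submitters' processing notes, which also list HISAT2 2.1.0, Bowtie2 and GRCh38. The RNA counting tool and strand setting are not given in the sources used here.

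RNA was tested with limma 3.58.1 (trend) on log2(normalised reads + 1) over all 9 libraries, for 13544 genes with at least 10 normalised reads in 3 libraries, in place of the count test planned for raw counts. DESeq2 1.42.0 on the recovered reads was an alternative. ChIP was tested with edgeR 4.0.16 (quasi-likelihood, TMM, filterByExpr) over 9 libraries per mark and over 18 for the interaction. P-values were Benjamini-Hochberg adjusted over the whole table, with a threshold of 0.05. A region was assigned to a gene within 1000 bp of a GENCODE 44 start. The members and lists were chosen with earlier results of these data known. Adjusted p-values of the members therefore serve only to count how many passed, beside the share of all regions. Named pathway genes were called genes, at most 4 per list and comparison by adjusted p, and any measured inhibitor or plasminogen binder; like profiles were the 3 genes nearest to a member, with a mean of at least 50 normalised reads. Replicate numbers did not pair the samples (same-number correlations -0.13 to 0.03). Scripts were tested on simulated data. Results that need certain genes, 1 of the pathway lists among them, are not reported here, and the list's counts leave it out.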

Additional observations from a re-analysis of the deposited data

Results flagged for a closer look

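In SLC6A4 against empty vector the edgeR interaction over 18 libraries passed the threshold at 2 of the 5 promoters. There the H3K4me3Q5ser difference lay above the H3K4me3 difference. The promoters were chosen with the chromatin results of these samples known, so the values are descriptions and the threshold supports nothing further. At ANXA2 the interaction was 0.34 (SE 0.06) on the log2 scale, and it was 0.30 to 0.37 with a library left out. At SERPINE2 it was 0.22 (SE 0.08). The other promoters did not pass, though their values were positive too. These were 0.28 (SE 0.12) at PLAT, 0.14 (SE 0.09) at PLAUR and 0.005 (SE 0.03) at PLAU. The SERPINE2 value was 0.13 with library-size scaling and 0.17 to 0.30 with a library left out, and it no longer passed the threshold with that scaling, without H3K4me3 empty-vector library 2 or 3, or without H3K4me3 SLC6A4 library 2. Of all regions 29.2% passed. In CUT&Tag, with a single library per group, H3K4me3 at the ANXA2 peaks was higher in SLC6A4 than in control cells, unlike in ChIP.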

How the results depend on the processing

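Of the values of single genes and promoters under the alternatives, 878 were classed as the same. Of the rest 28 lost the call, 4 gained it, 2 moved by more than the spread between replicates and 1 was classed as reversed. The changed calls of pathway genes stand beside their results; those of the 5 promoters concern values given as descriptions. The reversed value was PLAUR H3K4me3Q5ser in SLC6A4 against empty vector, which was not called and ranged from -0.039 to 0.014 with a library left out. The 2 that moved past the spread were ANXA2 RNA with library-size scaling, 0.17 in DDC against empty vector and -0.08 in DDC against SLC6A4. The main DDC against SLC6A4 value was 0.003, so this one also changed sign. It changed sign as well without SLC6A4 library 1, to -0.028, a value classed as the same. Library-size scaling shifted the DDC against empty vector RNA values of the other 4 members by a like amount, within the spread of their replicates. They became 0.07 for PLAT, -0.26 for PLAU, 0.03 for PLAUR and -0.28 for SERPINE2. The H3K4me3 count in DDC against SLC6A4 was 1 under DESeq2, under library-size scaling and with no filter, and 1 to 2 with a library left out. With a library left out, the H3K4me3 count in DDC against empty vector was 0 to 1 and the interaction count in SLC6A4 against empty vector 1 to 3. The H3K4me3Q5ser count with a library left out was 2 to 4 in DDC against empty vector and 4 to 5 in DDC against SLC6A4. With library-size scaling it was 5 in SLC6A4 against empty vector. In DDC against SLC6A4 it was 4 with that scaling or with DESeq2. The cause was not tested. Left-out libraries gave 11 to 14, 12 to 14 and 8 to 9 called pathway genes in the 3 comparisons. With the replicate number as a block, the pathway counts were 12, 14 and 8, and no count of called promoters changed. H3K4me3 at PLAT rested on 90 to 167 read pairs per library, which limits its precision.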
